A study of Mus musculus with 2 samples.

Results

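The breakdown of glucose and the response to low oxygen were followed through 35 named genes in the skin of newborn *Pnpla1*-/- and *Pnpla1*+/+ mice. Of these, 24 encode glucose and lactate transporters, glycolytic enzymes and a regulator of pyruvate use, and 11 encode oxygen sensors and familiar targets of the hypoxia-inducible factors. The genes were chosen by name, with earlier results of these data known. All 35 had at least 1 probe among the 30133 gene names of the array. Of the 35 genes, 32 gave a stronger scaled signal in *Pnpla1*-/- skin, 10 of them by at least 2-fold, and none was at least 2-fold lower. Across the 22374 genes with a difference, 50.2% gave the stronger signal in *Pnpla1*-/- skin, and the 2-fold shares were 6.7% upward and 3.04% downward. Within the 35, *Egln3*, an oxygen-sensing hydroxylase, was the furthest apart at 5.88-fold. It was followed by *Pfkfb3*, *Slc2a1* and *Hk2*, which act at the entry of glucose into glycolysis and its early control. These counts depend on the scaling. When the arrays were centred on spike-in probes instead, 25 of the 35 were stronger in *Pnpla1*-/- skin. Then 4 passed 2-fold, against 3.73% of all genes.

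PNPLA1 is a patatin-like lipid enzyme of differentiated keratinocytes that is needed for the acylceramides of the epidermal barrier. The *Pnpla1*-/- mice lacked the gene in every tissue. They carried the knockout-first allele *Pnpla1* tm1a(KOMP)Wtsi, made in C57BL/6N embryonic stem cells, from which the IRES-LacZ and Neo cassettes had been excised by flippase, and their *Pnpla1*+/+ littermates served as controls. Both groups were C57BL/6N pups on postnatal day 0. For each genotype, total RNA from the skins of 6 pups was mixed in equal amounts and hybridized to 1 single-colour Agilent array, so that there are no replicates, no test was made, and a difference compares these 2 pools rather than the genotypes. Of 43020 non-control spots per array, 71.7% were well above background for *Pnpla1*+/+ and 73.3% for *Pnpla1*-/-, and none was saturated.

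Values are processed spot intensities in arbitrary units, and a difference is the log2 of the *Pnpla1*-/- over the *Pnpla1*+/+ intensity after each was divided by the 75th percentile of its array, so that 1 is a doubling. That percentile was 2108 for *Pnpla1*+/+ and 1734 for *Pnpla1*-/-, and an unscaled intensity of equal size on both arrays therefore gives a positive difference. The only measured error is technical. The SD of a difference, taken from repeat spots, had a median of 0.081 on the log2 scale over 305 probes that were printed on 8 or more spots, which leaves out variation between pups, pools and labelling reactions. Intensities of different genes cannot be set against each other, since each probe has its own brightness.

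The targeted gene was measured first as a check of the labels. *Pnpla1* read 579 on the *Pnpla1*+/+ array and 114 on the *Pnpla1*-/- array, a difference of −2.07. The pools also differed in sex-linked transcripts, with *Xist*, expressed from the inactive X chromosome, at 1.12 and the Y-linked *Ddx3y* at −2.19. Among the 35 genes only *Pgk1* is X-linked. What the makeup of the pools contributed to the differences below was not tested. In whole skin, fewer cells of a type and less RNA per cell cannot be told apart.

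Glycolysis converts glucose to pyruvate in the cytosol and yields ATP without oxygen. Glucose enters through GLUT transporters, is trapped by hexokinase and committed by phosphofructokinase, whose activator fructose 2,6-bisphosphate is set by the PFKFB enzymes, and pyruvate is then either reduced to lactate and exported or oxidized in mitochondria. When oxygen is scarce, the prolyl hydroxylases encoded by the *Egln* genes no longer mark the hypoxia-inducible factors HIF-1α and HIF-2α for destruction, and these factors then switch on glucose transporters, most glycolytic enzymes and angiogenic factors. The epidermis has no blood vessels of its own and is known for a high rate of lactate production even in healthy skin. Several of these genes also respond to growth factor, MYC and stress signalling.

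Because HIF binds DNA at a short core, the region before the transcription start is shown for 5 genes that the results turn on, 3 with some of the largest differences (*Egln3*, *Pfkfb3* and *Slc2a1*), the lactate-forming *Ldha*, which carried most matches among these, and *P4ha1*, which had the lowest difference of all 35 genes. Each line gives the 250 bases before a RefSeq start, 5′ to 3′ on the strand of the gene, in build GRCm38.p6, and capitals mark the letters ACGTG or GCGTG read on either strand (CACGT or CACGC when the match lies on the other strand). The palindrome CACGTG, the E-box core that MYC and other factors also bind, holds a match on both strands. The windows are chr12:54203875-54204124 (minus strand) for *Egln3*, chr2:11502091-11502340 (minus strand) for *Pfkfb3*, chr4:119108495-119108744 (plus strand) for *Slc2a1*, chr7:46845554-46845803 (plus strand) for *Ldha* and chr10:59323046-59323295 (plus strand) for *P4ha1*.
Egln3: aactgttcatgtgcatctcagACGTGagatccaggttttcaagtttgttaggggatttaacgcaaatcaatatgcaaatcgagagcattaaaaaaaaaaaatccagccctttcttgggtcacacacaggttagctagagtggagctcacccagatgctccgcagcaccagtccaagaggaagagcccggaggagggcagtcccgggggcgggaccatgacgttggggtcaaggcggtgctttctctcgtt
Pfkfb3: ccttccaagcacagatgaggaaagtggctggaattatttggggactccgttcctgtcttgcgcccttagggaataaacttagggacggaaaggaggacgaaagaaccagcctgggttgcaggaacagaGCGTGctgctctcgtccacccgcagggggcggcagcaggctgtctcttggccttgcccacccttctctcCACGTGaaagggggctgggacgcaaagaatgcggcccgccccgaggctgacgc
Slc2a1: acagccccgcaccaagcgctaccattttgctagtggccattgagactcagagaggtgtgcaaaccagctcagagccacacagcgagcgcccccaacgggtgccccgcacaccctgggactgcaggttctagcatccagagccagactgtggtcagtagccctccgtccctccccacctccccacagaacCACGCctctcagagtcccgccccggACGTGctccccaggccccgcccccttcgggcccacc
Ldha: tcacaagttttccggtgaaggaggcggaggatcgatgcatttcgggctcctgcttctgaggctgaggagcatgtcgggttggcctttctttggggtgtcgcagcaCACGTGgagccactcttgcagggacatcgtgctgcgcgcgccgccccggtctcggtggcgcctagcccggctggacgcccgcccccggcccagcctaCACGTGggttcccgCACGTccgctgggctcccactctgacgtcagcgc
P4ha1: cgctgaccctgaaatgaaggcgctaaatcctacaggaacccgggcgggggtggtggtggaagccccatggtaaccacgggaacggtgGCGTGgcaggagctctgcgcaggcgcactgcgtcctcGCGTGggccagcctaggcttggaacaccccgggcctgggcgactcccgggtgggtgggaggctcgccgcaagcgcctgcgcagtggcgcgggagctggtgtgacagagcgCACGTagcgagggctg

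There was 1 match in the *Egln3* window, 3 in the *Pfkfb3* window shown, 2 in the *Slc2a1* window, 5 in the *Ldha* window shown and 3 in the *P4ha1* window. *Pfkfb3* and *Ldha* each had a second RefSeq start, whose window held 1 match and is not printed. RefSeq gave such windows for 32 of the 35 genes, 46 windows in all, and 37 of them (80.4%) held at least 1 match, against 38.6% of 32851 windows of all genes and 9358 of 21263 windows of protein-coding genes. The windows of the 35 genes were also richer in CpG, which both cores contain, with a median of 14 CpG against 10 in windows of protein-coding genes and 6 in those of all genes, and the part of CpG content in the shares was not tested. A match did not set apart the genes that were at least 2-fold higher. All 9 such genes with a window held one, and so did 20 of the 23 other genes, *Gpi1*, *Tpi1* and *Eno2* being the ones without. A match is only these letters in this window and does not show binding.

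Of the 35 genes, 10 (28.6%) were at least 2-fold higher in *Pnpla1*-/- skin, against 6.7% of the 22374 genes with a difference, and 0 were at least 2-fold lower, against 3.04%. At 1.5-fold, 19 genes (54.3%) were higher, against 13.8% of all genes, and 0 were lower, against 9.35%. The median difference of the 35 genes was 0.67, with a range from −0.31 to 2.56, while the median of all genes was 0.00 (log2). It was 0.57 for the 24 glycolytic genes, of which 6 were at least 2-fold higher, and 0.76 for the 11 oxygen-response genes, of which 4 were. All 35 genes were well above background on both arrays, so that no difference here is a bound.

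**Figure D1:**
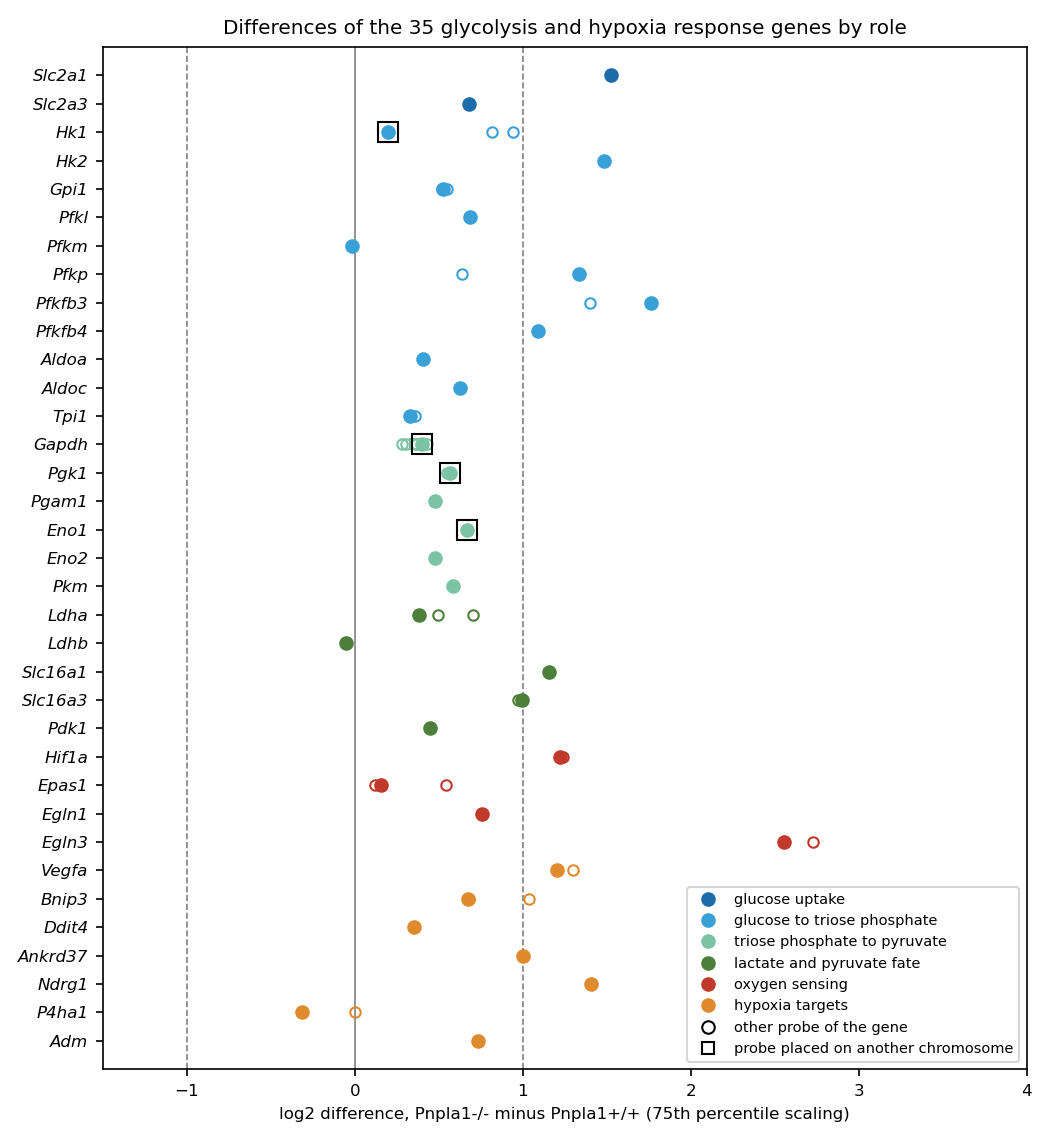
The log2 difference in scaled intensity, *Pnpla1*-/- minus *Pnpla1*+/+, is plotted on the horizontal axis for each of the 35 genes, ordered and coloured by role. Filled points are the probe used for the gene, open points its other probes well above background, squares mark such used probes as were placed on a chromosome other than that of the gene, and dashed lines mark 2-fold. The points of *Slc2a1*, *Hk2*, *Pfkfb3* and *Egln3* lie furthest to the right, and the 6 genes from triose phosphate to pyruvate sit together between 0.40 and 0.67.

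Glucose uptake was represented by 2 transporters. *Slc2a1*, which encodes GLUT1, the main glucose carrier of keratinocytes, read 13494 on the *Pnpla1*+/+ array and 31928 on the *Pnpla1*-/- array, a difference of 1.52. *Slc2a3*, which encodes the high-affinity carrier GLUT3, went from 236 to 310, a difference of 0.68. Both transporters gave the stronger signal in *Pnpla1*-/- skin, and the first was past 2-fold.

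Of the 11 genes that act between glucose and the triose phosphates, 4 were at least 2-fold higher, and their median was 0.63. Hexokinase traps glucose as glucose 6-phosphate, and *Hk2*, its inducible form, read 3172 on the *Pnpla1*+/+ array and 7303 on the *Pnpla1*-/- array, a difference of 1.49. For *Hk1*, the widely expressed form, the probes disagreed. The brightest probe gave 110722 and 104608, a difference of 0.20, but the array's annotation places it on chromosome 5, whereas *Hk1* lies on chromosome 10. Over 33 bases that probe is 93.9% identical to a probe of the ribosomal protein gene *Rpl17*, whose own 2 probes that it resembles differed by 0.15 and 0.28. The other *Hk1* probes, both placed on chromosome 10, differed by 0.94 and 0.82, so that the value of *Hk1* is uncertain.

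Phosphofructokinase, the enzyme of the committed step, has 3 forms that were unlike one another. The platelet-type *Pfkp* read 1263 on the *Pnpla1*+/+ array and 2617 on the *Pnpla1*-/- array, a difference of 1.33, and the liver-type *Pfkl* had 2093 and 2771, a difference of 0.69. The muscle-type *Pfkm*, printed on 10 spots, ranged from 10054 to 10610 in *Pnpla1*+/+ and from 8055 to 8648 in *Pnpla1*-/- skin, a difference of −0.02 with an SD of 0.03 over the spots. The platelet form was thus past 2-fold, whereas the muscle form was about equal after scaling. The second *Pfkp* probe, placed nearer the 3′ end of the gene and dim, at 97 and 124, gave 0.64.

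The bifunctional PFKFB enzymes make and remove fructose 2,6-bisphosphate. *Pfkfb3*, the form with the strongest kinase activity, read 1574 on the *Pnpla1*+/+ array and 4399 on the *Pnpla1*-/- array. This difference of 1.76 was the largest of the 24 glycolytic genes. The second *Pfkfb3* probe gave 1.40, but it was dim, at 58 and 126. *Pfkfb4* had 2509 and 4403, a difference of 1.09, and its other probe did not clear background on either array. Both were therefore at least 2-fold higher. Of the 2 other forms, *Pfkfb1* was at 0.20 and *Pfkfb2* at −0.49.

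The remaining enzymes of this stretch differed less. *Gpi1*, which turns glucose 6-phosphate into fructose 6-phosphate, was at 0.53, with its 3 overlapping probes between 0.52 and 0.55. The aldolases, which split the 6-carbon sugar, were at 0.41 for *Aldoa* and 0.63 for *Aldoc*, and *Tpi1*, which interconverts the triose phosphates, was at 0.33. Of these, only *Aldoc* was past 1.5-fold.

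The 6 genes from triose phosphate to pyruvate had a narrow range of differences, from 0.40 to 0.67, with a median of 0.52. None reached 2-fold and 1, *Eno1*, reached 1.5-fold. *Gapdh* went from 182805 to 198083, a difference of 0.40, and its 7 probes ranged from 0.28 to 0.43. *Pgk1*, the first ATP-forming step, was at 0.57, and *Pgam1*, which moves the phosphate group along the molecule, was at 0.48. The enolase *Eno1* went from 67036 to 87475, a difference of 0.67, and its neuronal counterpart *Eno2* was at 0.47. *Pkm*, which forms pyruvate, went from 23061 to 28389, a difference of 0.58. The probes used for *Gapdh*, *Pgk1* and *Eno1* were placed on chromosomes X, 3 and 2 rather than on 6, X and 4, where these genes lie, and such genes have near-identical processed copies elsewhere in the genome, so that their signals may be shared with those copies. On its own chromosome *Gapdh* had 5 probes, between 0.28 and 0.43, and *Pgk1* had 1, at 0.55, whereas *Eno1* had none, and its single probe was 98.2% identical over 57 bases to that of *Gm5506* (0.64).

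At the end of the pathway, transport differed more than the enzymes. *Slc16a1*, which encodes the lactate and pyruvate carrier MCT1, read 115 on the *Pnpla1*+/+ array and 211 on the *Pnpla1*-/- array, a difference of 1.16, in a dim range where another background correction gave 0.88. *Slc16a3*, which encodes the exporter MCT4 of glycolytic cells, went from 7370 to 12094, a difference of 0.996 that fell just short of 2-fold, and its overlapping second probe gave 0.97. Another carrier, *Slc16a7* (MCT2), was the other way round, at 1645 and 596, a difference of −1.18. The 2 lactate dehydrogenase genes were unlike. *Ldha*, the form that favours lactate production, went from 144436 to 154931, a difference of 0.38 with other probes at 0.71 and 0.49, while *Ldhb*, the form of oxidative tissues, went from 8674 to 6878, a difference of −0.05. *Pdk1*, the kinase that turns off pyruvate dehydrogenase, was at 0.45.

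Among the 4 oxygen-sensing genes, 2 were at least 2-fold higher and the median was 0.99. *Hif1a*, which encodes the oxygen-regulated subunit of HIF-1, read 2176 on the *Pnpla1*+/+ array and 4176 on the *Pnpla1*-/- array, a difference of 1.22. A second, upstream *Hif1a* probe gave 1.24, but it was dim, at 57 and 111. *Epas1*, which encodes HIF-2α and is strong in endothelium, was at 0.16, with other probes at 0.54 and 0.12. HIF subunits are controlled mainly at the protein level, which an array does not measure. Of the prolyl hydroxylases, *Egln1*, the main one in normal oxygen, went from 334 to 464, a difference of 0.76, and *Egln3*, itself a HIF target, went from 4390 to 21244, a difference of 2.56. The second *Egln3* probe went from 2020 to 11017, a difference of 2.73. The third hydroxylase, *Egln2*, was at 0.14.

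Of the 7 HIF targets outside glycolysis, 2 were at least 2-fold higher, 5 were at least 1.5-fold higher and the median was 0.74. *Ndrg1*, a hypoxia- and differentiation-linked gene strongly expressed in epithelia, read 10520 on the *Pnpla1*+/+ array and 22975 on the *Pnpla1*-/- array, a difference of 1.41. *Vegfa*, the main angiogenic growth factor of keratinocytes, had 2904 and 5497, a difference of 1.20, with a second probe at 1.30. Both were thus past 2-fold with this scaling, but with spike-in centring *Ndrg1* was at 0.98 and *Vegfa* at 0.77. *Ankrd37*, a small ankyrin-repeat gene and a direct HIF target, went from 997 to 1639, a difference of 0.999. *Bnip3*, which promotes the removal of mitochondria, was at 0.67 with other probes at 0.68 and 1.04, and *Adm*, the vasodilator adrenomedullin, was at 0.74. *Ddit4*, an inhibitor of mTORC1 that also answers to glucocorticoids and stress, was at 0.35. *P4ha1*, a collagen prolyl hydroxylase subunit, was the exception, going from 729 to 483, a difference of −0.31, while its second probe gave 0.00.

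The plot of both arrays shows how the 35 genes stood against the rest. Of the 7732 genes at or above the 75th percentile on both arrays, 3.0% were at least 2-fold higher in *Pnpla1*-/- skin, 48.0% had a difference above 0, and their median was −0.01. Among the 24 of the 35 genes that were as bright, 7 (29.2%) were at least 2-fold higher, 22 were above 0, and the median was 0.57. These values describe 1 cut in brightness, and the part of signal strength in the differences was not tested.

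**Figure D2:**
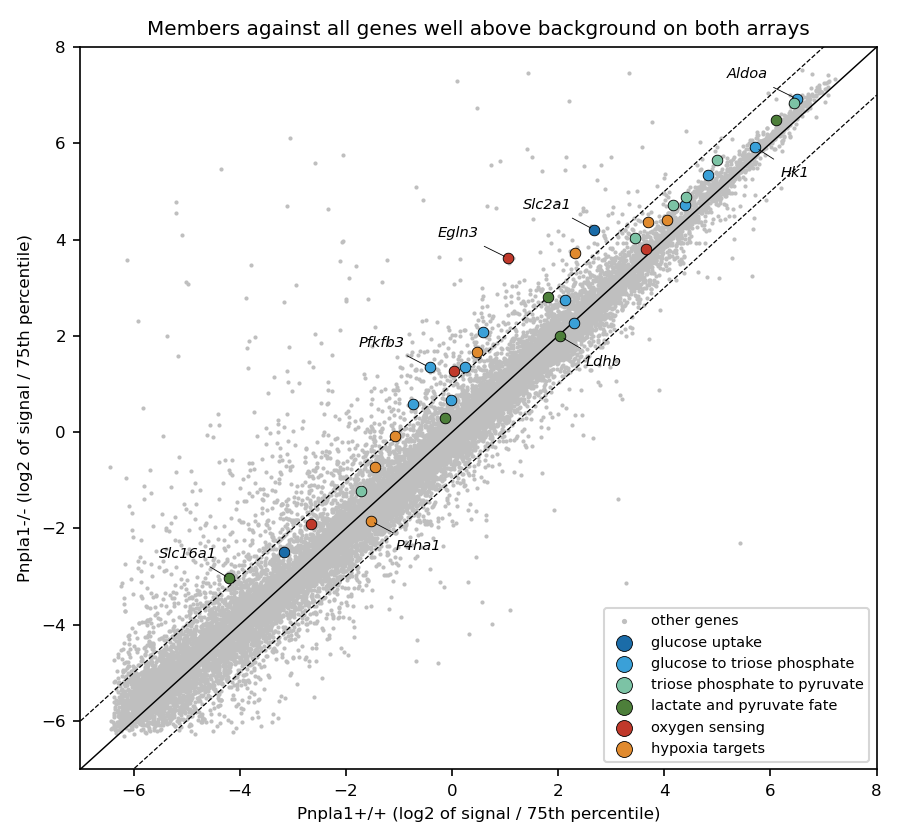
Each point is a gene that cleared background on both arrays, with the log2 of its intensity over the array's 75th percentile in *Pnpla1*+/+ skin on the horizontal axis and in *Pnpla1*-/- skin on the vertical axis. The solid line marks equal values and the dashed lines 2-fold, and the 35 genes, coloured by role over the other genes in grey, lie above the solid line apart from *P4ha1*, *Ldhb* and *Pfkm*.

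Repeat measurements within the array ran the same way for most genes. The 35 genes had 61 probes, of which 60 were well above background on both arrays, and 57 of these gave a positive difference and 3 a negative one. In the 15 genes with several such probes, the gap between the highest and the lowest difference had a median of 0.17 and reached 0.74 in *Hk1*. *P4ha1* was the 1 gene with probes of opposite sign. Probes of a gene share the same RNA and labelling and are not replicates, and several overlap.

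The scaling set how many of these genes counted as higher. When the arrays were centred on 8 E1A spike-in probes, all of the skin genes moved down together, to a median of −0.43. Then 4 of the 35 genes were at least 2-fold higher, against 3.73% of all genes, and 25 were above 0 and 10 below it. With no scaling the all-gene median was −0.28. In that setting 6 of the 35 were at least 2-fold higher, against 4.47% of all genes, and 30 were above 0 and 5 below. Both settings shift every gene by the same amount, so they cannot change the distance between the 35 genes and the rest. Their median lay above that of all genes by 0.66 as reported, and by 0.62 with quantile normalization, 0.56 with no filter on dim probes and 0.55 with normexp background correction, which can change it. *Slc2a1*, *Hk2*, *Pfkfb3* and *Egln3* remained at least 2-fold higher in all of the 11 other settings tried, and all 10 genes called higher remained above 0 in them. *Hk1*, *Aldoa*, *Tpi1*, *Gapdh*, *Ldha*, *Epas1* and *Ddit4* were below 0 with spike-in centring, so that for them only the position relative to other genes can be given.

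**Figure D3:**
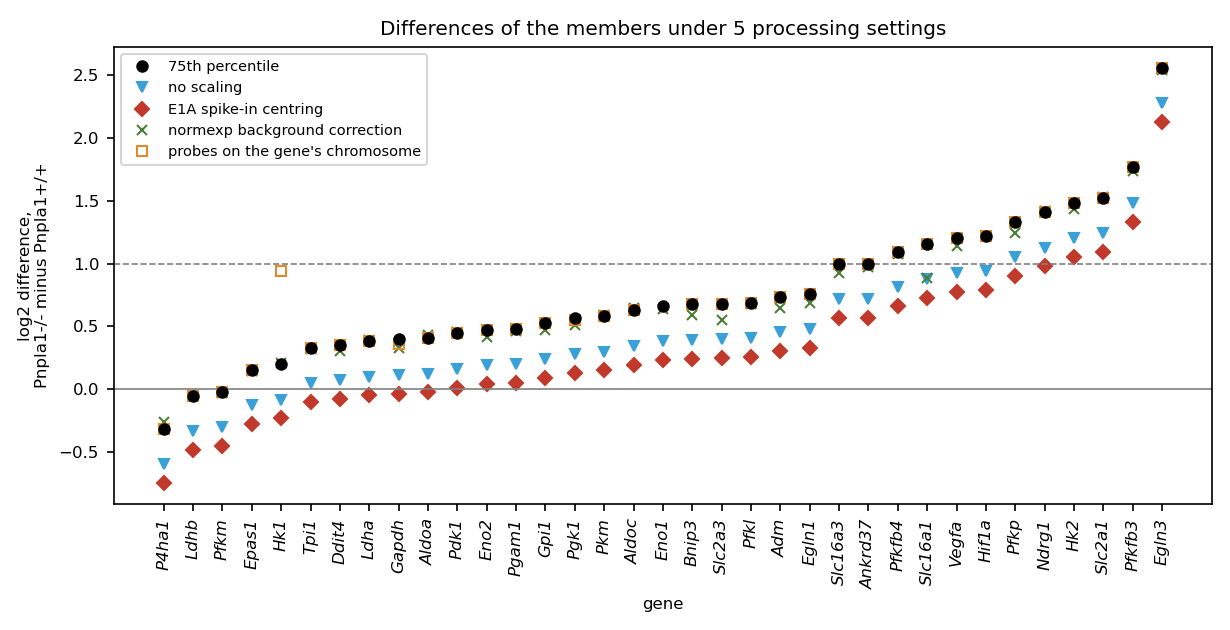
The log2 difference of each of the 35 genes, ordered along the horizontal axis, is plotted on the vertical axis under 5 ways of processing. The dashed line marks 2-fold. Spike-in centring and no scaling shift all genes down together, *Hk1* is the gene that moves most when only probes on its own chromosome are used, and *Egln3*, *Pfkfb3*, *Slc2a1* and *Hk2* stay above the dashed line throughout.

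Genes of neighbouring pathways were read in the same way. The 17 genes of the tricarboxylic acid cycle, which burns pyruvate in mitochondria, lay between −0.20 and 0.20 (*Cs*, citrate synthase), none past 1.5-fold, with a median of 0.07 that became −0.37 with spike-in centring, and all 17 were then below 0. The median of the 24 glycolytic genes was above that of the cycle by 0.51. Among the settings that do more than shift all genes alike, this gap was 0.45 with normexp, 0.48 with quantile normalization and 0.54 with the mean over the probes of a gene. The 24 respiratory chain genes had a median of 0.12 (−0.31 with spike-in centring). Among them *Ndufa4*, a subunit linked to cytochrome oxidase, was at 0.88 and *Ppargc1a*, a coactivator of mitochondrial biogenesis, was at 1.22 (538 and 1031). The genes that carry pyruvate into mitochondria or control its oxidation, 13 in all, had a median of −0.02, with none at least 2-fold apart in either direction. The pyruvate carrier genes *Mpc1* and *Mpc2* were at 0.03 and −0.02, and *Pcx*, pyruvate carboxylase, was highest at 0.67.

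**Figure D4:**
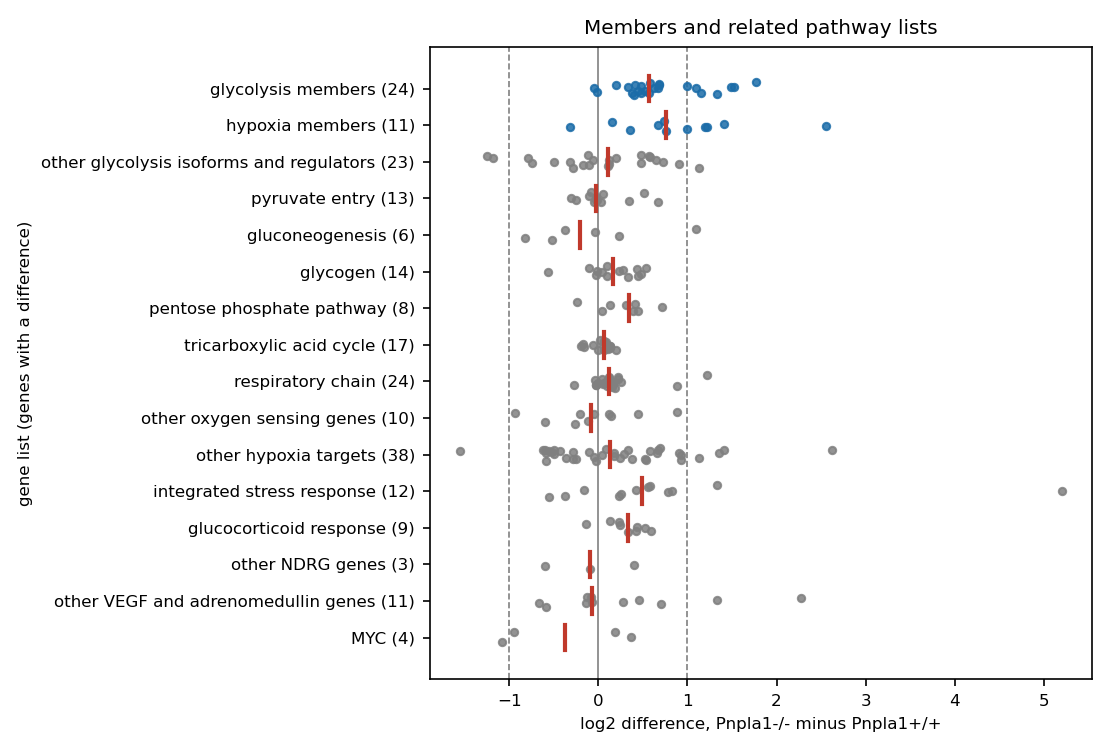
Each point is a gene with its log2 difference, *Pnpla1*-/- minus *Pnpla1*+/+, on the horizontal axis and its list on the vertical axis, with the number of genes in parentheses. Red bars are medians and dashed lines mark 2-fold, and points are spread vertically for legibility. The bars of the glycolytic and hypoxia genes studied (blue, 0.57 and 0.76) stand to the right of those of the tricarboxylic acid cycle (0.07), the respiratory chain (0.12) and the other hypoxia targets (0.13).

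Other forms of the glycolytic proteins were mixed. Of 28 further transporters, isoenzymes and regulators, 23 had a difference, with a median of 0.11 (−0.33 with spike-in centring), and 12 were above 0 and 11 below. The leukocyte hexokinase *Hk3* was at least 2-fold higher, at 1.12 (203 and 365), while *Hkdc1*, at −1.25 (93.8 and 32.4), and *Slc16a7* were at least 2-fold lower. Under normexp, the other background correction, *Hk3* was at 0.92 and *Hkdc1* at −0.37, so that both calls were lost, and *Slc16a7* was at −1.12. The muscle isoenzymes *Eno3* and *Pgam2* were at −0.10 and −0.29, a grouping made after their values were seen. The testis forms *Pgk2* and *Ldhc* did not clear background on either array.

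Pathways that branch from or oppose glycolysis were read next. The 8 measured genes of the pentose phosphate pathway, which makes NADPH, had a median of 0.35 (−0.09 with spike-in centring), led by *Pgd* at 0.71 and *G6pdx*, its rate-setting dehydrogenase, at 0.45. The 14 measured genes of glycogen metabolism had a median of 0.17 (−0.26), none past 1.5-fold, from *Pygb*, brain-type glycogen phosphorylase, at −0.56 to *Ppp1r3c* at 0.53. Of 6 gluconeogenic genes, which make glucose, 1 was at least 2-fold higher, *Pck1*, the enzyme of its first committed step, at 1.09 (3282 and 5757), and *Fbp1* was at −0.82. The median of those 6 was −0.21 (−0.64).

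The rest of the oxygen-sensing machinery and of the HIF target genes was mixed. Of 10 further genes of oxygen sensing, none was at least 2-fold apart and the median was −0.08 (−0.51 with spike-in centring). *Arnt*, the HIF partner, was at −0.04, *Vhl*, the ligase subunit that captures hydroxylated HIF, at −0.20, *Hif1an*, the asparaginyl hydroxylase, at −0.12, and *Hif3a*, an inhibitory HIF subunit and itself a target, at 0.89. *Arnt2*, the neural relative of *Arnt*, was furthest from 0, at −0.94 (67.4 and 29.0), but at −0.22 under normexp. Of 39 further HIF targets, 38 had a difference. Their median was 0.13 (−0.30), and 21 were above 0 and 17 below, which is near the 50.2% above 0 among all genes, while 13 were above and 25 below with spike-in centring. Of these 38, 4 (10.5%) were at least 2-fold higher, against 6.7% of all genes, and 1 was at least 2-fold lower, against 3.04%. With spike-in centring 1 was higher and 5 were lower, against 3.73% and 9.84% of all genes.

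Within those targets, the highest were the secreted glycoprotein gene *Stc2* at 2.63 (228 and 1157), *Ero1l*, an oxidase of the endoplasmic reticulum, at 1.41, the mitochondrial gene *Fam162a* at 1.35 (33880 and 71123) and the clock-linked repressor *Bhlhe40* at 1.12. The carbonic anhydrases *Car9* and *Car12*, which help export acid, were at 0.93 and 0.91, and the mitochondrial *Higd1a* was at 0.93. *Hmox1*, heme oxygenase, which oxidative stress and heme also induce, was at −1.55 (11430 and 3200). Of the 6 genes here that encode enzymes which modify and crosslink collagen, *P4ha2*, *Plod1*, *Plod2*, *Lox* and *Loxl2* were below 0, at −0.50, −0.49, −0.43, −0.25 and −0.62, as *P4ha1* was, whereas *P4hb*, the partner subunit of the P4HA proteins, was at 0.28, and they were grouped after their values were seen. *Epo* did not clear background on either array.

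Cell type markers moved beside these genes in part. Of 6 red blood cell markers, 4 were at least 1.5-fold higher in *Pnpla1*-/- skin, namely *Hba-a1*, the brightest, at 0.83, *Hbb-bs* at 1.27, *Alas2* at 1.32 and *Slc4a1* at 1.11, whereas *Epb42* was above background on neither array, and the summed scaled signal of the list went from 42.9 to 78.9. Red blood cells depend on glycolysis for their ATP. Among 8 leukocyte markers, 7 were measured, with a median of 0.42, and 3 were at least 1.5-fold higher, *Ptprc* at 1.51, *Cd68* at 0.84 and *Csf1r* at 0.67, the first of them past 2-fold, while *Csf3r*, the brightest, was at 0.04, *Cd207* was not well above background, and the sum went from 57.4 to 64.3. In the hair follicle list, 7 of 8 markers were below 0 and 4 were at least 2-fold lower, with *Krt71*, the brightest, at −0.82, *Foxn1* above 0 at 0.52 and a sum of 81.8 and 42.0. The part of these cell types in the results was not tested.

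Markers of the other cell types of skin differed less. The median was 0.15 for 6 basal keratinocyte genes, the brightest of which, *Krt5*, was at 0.22, but *Krt14* was at 1.35 and *Krt15* at −1.67, and the sum went from 194.8 to 226.9. It was 0.10 for 5 suprabasal keratinocyte genes (*Krt10*, the brightest, 0.20), with sums of 377.5 and 386.1. The endothelial list of 7 genes had a median of 0.31 and none past 2-fold, with *Cldn5*, the brightest, at −0.10 and sums of 7.91 and 9.00. For 8 genes of skeletal muscle, a strongly glycolytic tissue, the median was 0.03, *Tnni2* was at 0.01 and the sums were 310.7 and 343.4. The 7 fibroblast genes had a median of −0.15 (*Col1a2*, −0.17, sums of 344.3 and 324.7), the 5 measured adipocyte genes one of 0.10 (*Fabp4*, 0.10, sums of 64.3 and 68.8, *Lep* not well above background) and the 4 melanocyte genes one of −0.35 (*Dct*, −0.38, sums of 28.3 and 22.3). The strong signals of *Tnni2*, *Col1a2* and *Fabp4* on both arrays show that the RNA came from skin with its deeper layers, as the tissue label says, although the design text names epidermis. With spike-in centring, the medians of these marker lists other than that of red blood cells were below 0.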

How the data were processed

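Skin RNA of newborn pups, pooled from 6 animals per genotype, was measured on 2 Agilent Mouse 4x44K v2 arrays, 1 per genotype, each with a single Cy3 label, on the same slide and in the same scan. The deposited scanner files hold spot intensities made by the authors with Agilent Feature Extraction 11.5.1.1, which subtracted background and corrected spatial trends. The authors also deposited a value table made with GeneSpring GX by global normalization, in which each value is the ratio of a processed signal to 1 factor per array. It was used as an alternative only.

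Processed intensities were divided by the 75th percentile over the non-control spots of each array and log2-transformed. Outlier-flagged spots were left out (138 for *Pnpla1*+/+ and 82 for *Pnpla1*-/-), repeat spots were averaged, and the probe with the highest mean over both arrays stood for its gene. Genes not well above background on either array were dropped, and for 1694 genes well above background on 1 array the difference is a bound. This left 22374 of 30133 genes. A gene was called at a 2-fold difference. With 1 array per genotype no test, interval or replicate error could be had, and the number of arrays limits the precision.

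Symbols were updated through the RefSeq gene table of GRCm38.p6, by accession for 27508 probes, by symbol for 3544 and by synonym for 404, and 7973 kept the name in the file. Probe positions are those of the files, in build mm9. Sequences before transcription starts came from RefSeq in build GRCm38.p6. Probes were compared with blastn 2.17.0. Python 3.11.15, numpy 2.4.6, pandas 2.3.3, R 4.3.3 and limma 3.58.1 (normexp with an offset of 50, quantile normalization) were used, and the calculation of differences was tested on simulated data. Alternatives were other scalings (array median, none, probes above background, quantile, spike-in probes, the deposited ratios), normexp, the mean over probes, no filters on dim or flagged spots and a 1.5-fold threshold. All 35 genes are named, and in each related pathway list (not the marker lists) every gene at least 2-fold apart (up to 4 in each direction) or, in lists with fewer than 2 such genes, the one furthest from 0, while the other genes named were chosen after their values were seen. The 35 genes and the lists were chosen with earlier results of these data known. Values of 2 genes of the lists are not reported here.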

Additional observations from a re-analysis of the deposited data

How the results depend on the processing

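The median difference of the 35 genes (0.67) was 0.38 with no scaling, 0.23 with centring on the spike-in probes and 0.55 with quantile normalization. That of the 24 glycolytic genes (0.57) was 0.29, 0.14 and 0.46, and that of the 11 oxygen-response genes (0.76) was 0.48 with no scaling and 0.33 with the spike-in probes. The number of genes at least 2-fold higher (10) was 6 with no scaling and 4 with the spike-in probes, and 19 genes were higher at a threshold of 1.5-fold. In these settings and the others tried, 0 of the 35 genes were at least 2-fold lower. Among all genes, 1499 were higher and 681 lower as reported, 998 and 1424 with no scaling, 827 and 2182 with the spike-in probes, 1270 and 890 with quantile normalization, 960 and 321 with normexp background correction, and 3041 (10.1%) higher and 3.67% lower with no filter on dim probes. The median of all genes was then −0.28, −0.43, −0.07, 0.05 and 0.10, and the median of the 35 genes lay above it by 0.62, 0.55 and 0.56 in the last 3, the first 2 being shifts of all genes alike. Of the gene values under the alternatives, 287 moved by less than the technical SD of 0.081, 97 moved by more and 0 of the called ones changed sign. *Pfkp* was at 0.99 as the mean of its probes. The use of probes on the gene's own chromosome was chosen after seeing the data, left *Eno1* without a value and put *Hk1* at 0.94. No paired analysis was possible because each genotype had 1 array, and for the same reason no replicate could be left out. Arrays on which 71.7% and 73.3% of spots were well above background limit what can be said of dim probes such as those of *Slc16a1* and *Slc2a3*. The spike-in RNA differed by 0.30 to 0.49 between the arrays over its 8 probes, and whether this reflects the amount of labelled RNA was not tested.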

Other observations

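Lists that share members or inputs with the glycolysis and hypoxia genes were read beside them. Among 12 genes of the integrated stress response, the ATF4 program that answers to amino acid shortage and misfolded protein, *Slc7a11*, the cystine and glutamate exchanger, read 29.7 on the *Pnpla1*+/+ array and 900.2 on the *Pnpla1*-/- array, a difference of 5.20 that was 3.72 under normexp background correction. *Trib3*, an ATF4-induced pseudokinase, had 4637 and 9605, a difference of 1.33, and *Asns*, asparagine synthetase, was at 0.83, while *Ddit3*, *Atf3* and *Chac1* were at 0.23, −0.56 and −0.38. The median of the list was 0.49 (0.06 with spike-in centring), and 2 genes were at least 2-fold higher. Of 9 genes induced by glucocorticoids, none was past 2-fold and the median was 0.33 (−0.10), with *Sgk1* highest at 0.59 and *Per1* at −0.14.

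In the VEGF and adrenomedullin families, *Adm2*, which encodes intermedin, was at 2.27 (84.2 and 334.4) and *Calcrl*, the receptor for both adrenomedullins, at 1.34 (26.7 and 55.4), and these 2 of 11 genes were at least 2-fold higher. Both signals were dim, and under normexp *Adm2* was at 1.67 and *Calcrl* at 0.69, which left 1 of the 11 at least 2-fold higher. *Vegfb*, *Vegfc* and *Vegfd* were at −0.13, −0.07 and −0.13, unlike *Vegfa*, and the receptors *Flt1* and *Kdr* were at 0.70 and 0.31. The median of the list was −0.07 (−0.50). The other NDRG genes, *Ndrg2*, *Ndrg3* and *Ndrg4*, were at 0.40, −0.10 and −0.60. Of the MYC genes, which also drive glycolytic enzymes, *Myc* was at 0.37 and *Max* at 0.19, and *Mycn* and *Mycl* were at −0.94 and −1.08.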
